A study of Homo sapiens with 6 samples.

Results

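Serpin genes were read from RNA sequencing libraries whose labels name T24, a human cell line from a bladder carcinoma, transfected with a plasmid. Members were the rows of the deposited gene table whose symbol is SERPIN followed by a clade letter from A to I and a number, which gave 35 genes of 20289. The first group holds 3 libraries labelled as transfected with a pcDNA3.1 plasmid that overexpresses LINC00665, which is a long non-coding RNA. The second holds 3 libraries labelled as given Vector plasmids, whose sequence the labels do not describe further, and cells of both groups were kept in RPMI with fetal bovine serum and given their plasmid with lipofectamine. The series' text describes 3 independent experiments and concerns how LINC00665 acts in lymph node metastasis of bladder cancer. The level of LINC00665 itself was not analysed here.

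Serpins are a family of proteins with a shared fold, most of which inhibit serine proteases by a suicide mechanism. The protease cuts an exposed loop of the serpin, and the serpin then changes shape and traps the enzyme. Clade A and C to G members are mostly secreted and control coagulation, fibrinolysis, complement and leukocyte proteases. Clade B members mostly stay inside the cell and protect it from its own or from incoming proteases. A few members, among them SERPINB5, SERPINF1 and SERPINH1, are not protease inhibitors, and SERPINH1 is a chaperone of collagen in the endoplasmic reticulum. In epithelia SERPINB2 is among the best known, since it acts on a protease that helps to clear fibrin and extracellular matrix.

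A sample identity check found that 3 of 6 libraries did not match the labelled line. Groups are therefore named by label, and higher or lower means under the LINC00665 label relative to the Vector label. The totals were 19114096 to 22725687 expected counts under the LINC00665 label and 17289788 to 20023417 under the Vector label. Of 16 urothelial and epithelial markers, 12 of the 13 tested were higher under the LINC00665 label and none was lower, with summed levels of 9676 to 11247 CPM (expected counts scaled to a common effective library size) against 1027 to 3193 CPM under the Vector label, where UPK3A was at 0 and KRT8 and KRT18 made most of the sum. KRT20 was at 0 in all libraries, and UPK1A, not tested, went the other way, with 2 counts under the LINC00665 label and 33 under the Vector label. Of the 13, 7 passed the filter on low counts through the LINC00665 label alone, which ties their direction to it, and 5 of the 6 that would have passed in each group were higher. GATA3, a defining urothelial factor, averaged 84.9 CPM under the LINC00665 label and 0.053 CPM under the Vector label. Of 12 renal tubule markers, 6 were tested, 5 were lower and 1 higher, and their sum was 33.3 to 35 CPM under the LINC00665 label and 381 to 544 CPM under the Vector label, with UMOD and SLC12A1 at 0 in both. Of these 6, 1 would have passed the filter in each group, and it was lower. Among all genes tested 34.2% were called higher and 29.3% lower. Among genes that would have passed in each group 26.9% were higher and 31.9% lower. Plasmid, line and label cannot be told apart in these libraries, and this holds for every serpin difference given here. In cultures sequenced in bulk, fewer cells that express a gene and less RNA per cell cannot be told apart either.

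The serpin profile was dominated by different genes under the 2 labels. SERPINB2 was at 1912, 1600 and 1715 CPM in the libraries labelled LINC00665 and at 0.505, 0.38 and 0.569 CPM in those labelled Vector. SERPINB9 was far less abundant, at rank 11 of the serpins per length under the LINC00665 label. It was read in each library labelled LINC00665 and in 0 of the 3 labelled Vector. Both genes passed the filter on low counts through the LINC00665 label alone, so their direction is tied to it. SERPINB6 was read under both labels and was lower under the LINC00665 label, at 59.5 against 119 CPM on average under the Vector label.

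Upstream sequences are shown for the genes with the widest difference between labels whose windows had no more than 5 bases in annotated exons. The RefSeq promoter table (GRCh38.p14) held a window for 27 of the 35 members, with 41 start sites. The 250 bases before each start were searched on both strands for short patterns. TGANTCA is the core of AP-1 sites, TGAGTCA or TGACTCA, with any base allowed in the middle. Every match to it is called an AP-1 core here. The other patterns were GAANNTTC, the core of a heat shock element, and TATAAA, the TATA box. Capitals mark these matches, which do not overlap in the windows shown, and all are written in the direction of the gene. SERPINB2 lies on the plus strand at chr18:63887455-63887704, SERPINB7 on the plus strand at chr18:63777531-63777780 and SERPINB9 on the minus strand at chr6:2903310-2903559.
SERPINB2: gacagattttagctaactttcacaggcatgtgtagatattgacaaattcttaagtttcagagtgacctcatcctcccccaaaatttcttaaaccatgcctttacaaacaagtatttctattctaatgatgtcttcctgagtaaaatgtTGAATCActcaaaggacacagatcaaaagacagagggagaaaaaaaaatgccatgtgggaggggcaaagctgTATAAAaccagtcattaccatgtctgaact
SERPINB7: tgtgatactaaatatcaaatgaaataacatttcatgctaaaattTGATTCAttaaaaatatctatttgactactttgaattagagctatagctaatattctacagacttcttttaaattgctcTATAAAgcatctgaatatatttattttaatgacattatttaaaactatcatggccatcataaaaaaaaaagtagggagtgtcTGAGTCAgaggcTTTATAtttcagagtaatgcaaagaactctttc
SERPINB9: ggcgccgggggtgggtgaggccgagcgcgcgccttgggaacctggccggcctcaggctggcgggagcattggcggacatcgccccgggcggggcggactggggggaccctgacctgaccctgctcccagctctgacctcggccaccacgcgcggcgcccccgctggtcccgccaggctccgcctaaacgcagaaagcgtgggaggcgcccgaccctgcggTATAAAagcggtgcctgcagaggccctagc
The SERPINB2 window holds 1 TGAATCA, which begins 102 bases before the start, and a TATAAA 30 bases before it. The SERPINB7 window, one of 3 starts in the table, holds 2 AP-1 cores and 2 TATA boxes, one of them read on the other strand as TTTATA. The SERPINB9 window holds a TATAAA 30 bases before the start and no AP-1 core. For SERPINB5 and SERPINH1 only the stretch around the match is shown, on the plus strand at chr18:63476801-63476829 with an AP-1 core and at chr11:75562171-75562200 with a heat shock core. The windows that hold these matches each had 197 of 250 bases in annotated exons, and both stretches lie within the annotated gene.
SERPINB5: taacttcagccTGAATCAtttctttcaat
SERPINH1: ccaactttccaGAAGTTTCtcgggacgggc
Among the windows of serpin starts, 9 of 41 (22%) held an AP-1 core, against 6.57% of 35116 windows of all genes. A heat shock core was found in 4 of the 41 (9.76%) and in 5.78% of all windows, and a TATA box in 8 (19.5%) and in 10.7%. Starts of 1 gene can share bases, so these shares are descriptions. By gene, 6 of the 8 members of the chromosome 18 cluster with a window had an AP-1 core, and 2 of the other 19 did. These 2 were SERPINE3 and SERPINI2, which had no count in any library. Some genes had more than 1 window, and the share by gene over all genes was not computed. The 6 included SERPINB12 and SERPINB13, which had 2 and 28 counts under the LINC00665 label. They also included SERPINB5 and SERPINB8, and all 250 bases of the SERPINB8 window were in annotated exons. For SERPINB2, SERPINB5, SERPINB12, SERPINE3 and SERPINI2 the only match had A or T in the middle, not the G or C of the AP-1 core.

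Of the 35 members, 4 had no count in any library (SERPINA7, SERPINA11, SERPINE3 and SERPINI2). A further 14 had too few counts for the test, with at most 1.73 CPM in a library, and 17 were tested. By edgeR's quasi-likelihood test with Benjamini-Hochberg adjustment over 13552 genes, 12 of the 17 were higher under the LINC00665 label, 2 were lower and 3 did not pass an adjusted p of 0.05. Over all genes tested, 63.5% were called, 34.2% higher and 29.3% lower. The filter on low counts bears on these counts, since 7 of the 17 passed it through the libraries labelled LINC00665 alone and 2 through those labelled Vector alone. Of the 8 that would have passed in each group by itself, 6 were higher, 1 was lower and 1 did not pass, where 58.8% of the 11398 such genes were called, 26.9% higher and 31.9% lower. The median log2 fold change was 3.26 over the 17 members tested and 0.03 over all genes tested, and 2.19 and -0.09 over the 8 members and all genes that would have passed in each group. The libraries of the labels did not overlap for 14 of the 17 members, 12 higher and 2 lower, against 70.2% of all genes tested, 37.9% higher and 32.3% lower. These 14 include members that passed the filter through 1 label alone, whose lack of overlap is tied to the filter. The share was not computed over genes that would have passed in each group.

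**Figure D1:**
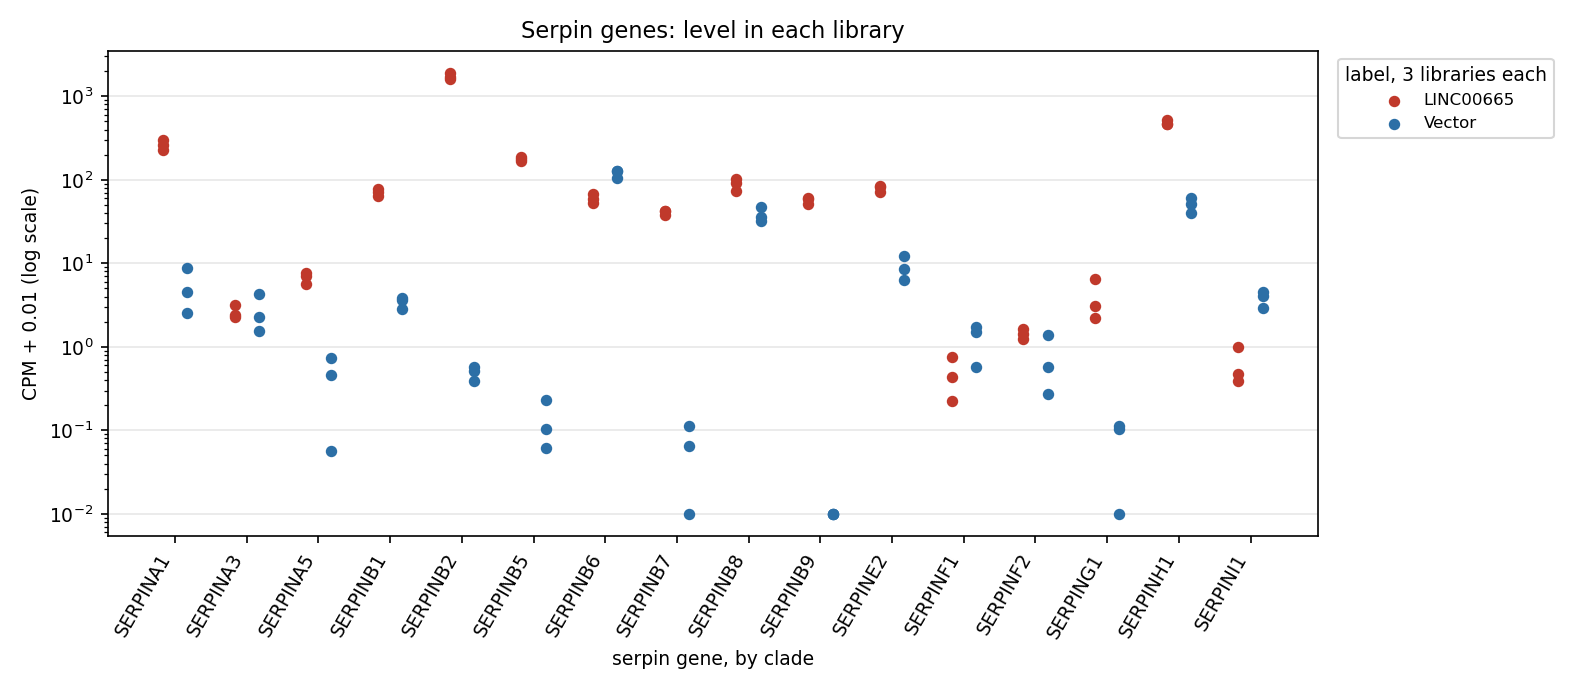
Level of 16 serpin genes tested in each library, as CPM + 0.01 on a log scale, with genes ordered by clade along the horizontal axis. Points are single libraries, 3 labelled LINC00665 and 3 labelled Vector. The points of the labels overlap for SERPINA3, SERPINF1 and SERPINF2, and SERPINB6 and SERPINI1 lie lower under the LINC00665 label.

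Clade B, the intracellular serpins, held the widest range. All 7 tested members passed the threshold, 6 higher and 1 lower. Over all genes tested 63.5% were called, 34.2% higher and 29.3% lower. SERPINB2, SERPINB5, SERPINB7 and SERPINB9 passed the filter through the LINC00665 label alone, so their direction is tied to it. The others would have passed in each group, where 58.8% of such genes were called. Of these, SERPINB1 and SERPINB8 were higher and SERPINB6 was lower. SERPINB2, plasminogen activator inhibitor 2, averaged 1742 ± 158 CPM under the LINC00665 label and 0.485 ± 0.096 CPM under the Vector label (SD, n = 3 each). Its log2 fold change was 11.77 (SE 0.23, edgeR adjusted p = 7.3e-08), which was 41st from the top of 13552 genes. SERPINB2 alone took 0.147 to 0.181% of all counts in the libraries labelled LINC00665, where it ranked between 69 and 99 among the 20289 genes by FPKM (the authors' measure of fragments per length and library size).

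SERPINB5 (maspin), which has no known protease target, was at 188, 170.2 and 176 CPM under the LINC00665 label and at 0.0932, 0.222 and 0.0517 CPM under the Vector label, 7 counts in all. Its log2 fold change was 10.47 (SE 0.31, adjusted p = 1.3e-07). SERPINB7 (megsin) was at 41.9, 37.7 and 41.8 CPM in the libraries labelled LINC00665 and at 0, 0.0555 and 0.103 CPM in those labelled Vector. With 3 counts in the whole Vector group its level was 793 times as high, and the exact 95% interval for counting error ran from 271 to 3846 (adjusted p = 4.3e-07). Both genes passed the filter through the LINC00665 label alone, so the distance between the libraries of the labels is no support for their direction. The spread within the LINC00665 label was 5.04% (SERPINB5) and 5.93% (SERPINB7) of the mean.

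SERPINB9 inhibits granzyme B, the cytotoxic protease of lymphocytes. It was at 61.3, 58.7 and 52 CPM under the LINC00665 label and had 0 counts in all 3 libraries labelled Vector. Against a floor of 3 counts over the Vector group it was at least 1126-fold higher (adjusted p = 1.2e-06). SERPINB1, an inhibitor of neutrophil proteases, was at 78.7, 72.3 and 64 CPM under the LINC00665 label and at 3.59, 3.83 and 2.79 CPM under the Vector label (log2 fold change 4.39, SE 0.19, adjusted p = 6.4e-07). SERPINB8, known as an inhibitor of the convertase furin, differed less, with 92, 73.7 and 101 CPM under the LINC00665 label and 31.9, 35.5 and 46.7 CPM under the Vector label (log2 fold change 1.22, SE 0.2, adjusted p = 0.00076). SERPINB1 and SERPINB8 were higher in each library labelled LINC00665 than in any labelled Vector. SERPINB9 passed the filter through the LINC00665 label alone, so the lack of overlap between its libraries is no support for its direction.

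SERPINB6, an intracellular inhibitor of cathepsin G, was the clade B gene that was lower. It was at 52.6, 67.6 and 58.2 CPM in the libraries labelled LINC00665 and at 106, 126 and 126 CPM in those labelled Vector, and its log2 fold change was -1.0 (SE 0.16, adjusted p = 0.00065). Under the Vector label it was among the most abundant serpins per length, at 91.2 ± 7.84 FPKM (SD, n = 3).

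The clade B genes lie in 2 clusters. On chromosome 18, 10 of them stand between 63476761 and 64019779 of GRCh38 (GENCODE release 29). In order, SERPINB5 is followed by SERPINB12, SERPINB13, SERPINB4, SERPINB11 and SERPINB3, then by SERPINB7, SERPINB2, SERPINB10 and SERPINB8. Under the LINC00665 label SERPINB5, SERPINB7, SERPINB2 and SERPINB8 were between 40.4 and 1742 CPM on average, while the other 6 were between 0.0175 and 1.11 CPM. Under the Vector label only SERPINB8 was above 1 CPM on average, at 38.1 CPM, and SERPINB12, SERPINB13, SERPINB4, SERPINB11 and SERPINB3 had 0 counts. VPS4B, the gene of the table before the cluster, was lower under the LINC00665 label, at 40.1 against 54.6 CPM under the Vector label (log2 fold change -0.45, adjusted p = 0.028), and CDH7 after it had too few counts for the test.

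**Figure D2:**
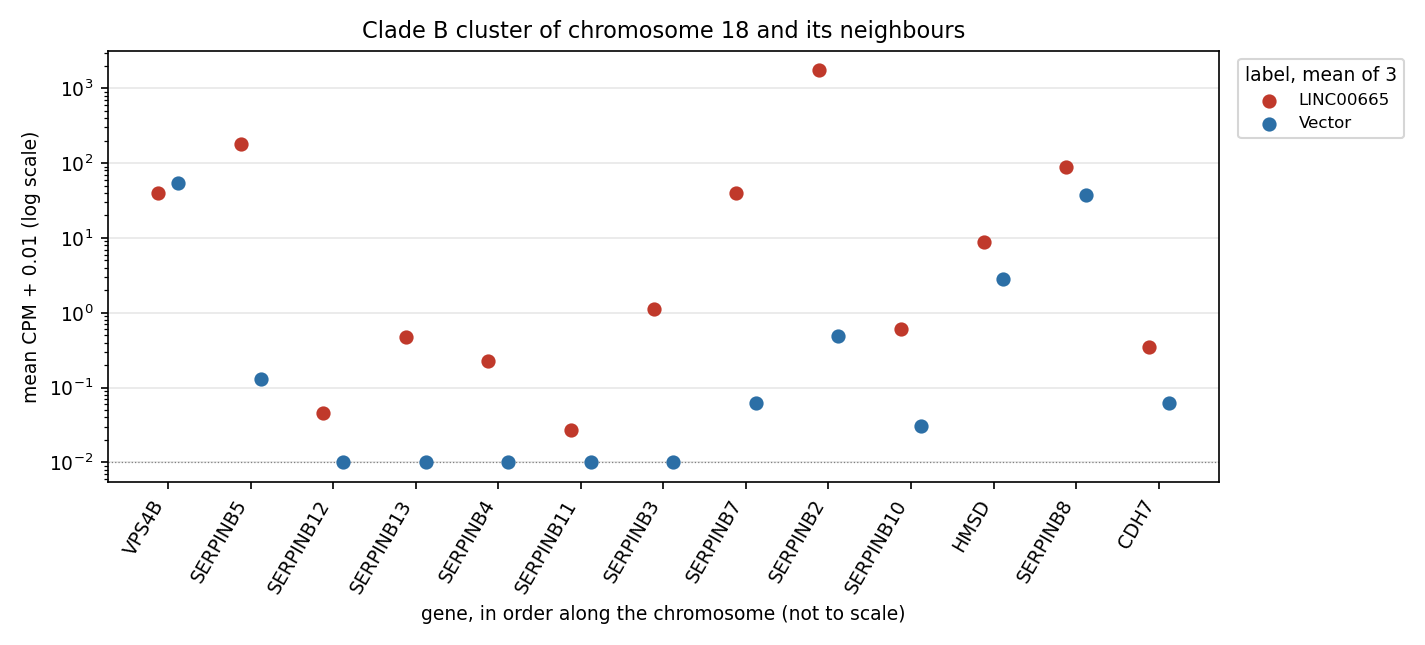
Mean CPM + 0.01 on a log scale for the genes of the chromosome 18 clade B cluster and the nearest gene of the table on each side, in order along the chromosome and not to scale. Points are means of 3 libraries per label, and the dotted line marks 0 counts. SERPINB2 reaches 1742 CPM under the LINC00665 label beside SERPINB10 at 0.593 CPM.

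Reads of some neighbours cannot be told apart. SERPINB2 and SERPINB10 share 547 exon bases on the same strand, and 34.73 and 1.32 expected counts were given to SERPINB10 under the LINC00665 and the Vector label, so its level is uncertain. SERPINB3 and SERPINB4, the squamous cell carcinoma antigens, share 413 windows of 50 bases, 23.9% of the SERPINB3 transcript. They had 67 and 13 counts under the LINC00665 label and 0 under the Vector label, at least 22.2-fold and 4.31-fold higher with libraries pooled. By library the counts under the LINC00665 label were 30, 33 and 4 for SERPINB3 and 7, 6 and 0 for SERPINB4. The libraries of the labels thus overlapped for SERPINB4, and how reads were divided between the pair is uncertain. SERPINB8 shares 370 exon bases with HMSD, which was also higher (8.74 against 2.85 CPM under the Vector label). SERPINB13, an inhibitor of cysteine cathepsins, had 28 counts under the LINC00665 label and 0 under the Vector label, at least 9.27-fold higher. SERPINB11 and SERPINB12 had 1 and 2 counts in all.

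On chromosome 6, SERPINB1, SERPINB9 and SERPINB6 stand side by side between 2832332 and 2972165 of GRCh38, all on the minus strand. The first pair was higher under the LINC00665 label and SERPINB6 was lower. The genes on either side were WRNIP1, which was lower at 46.6 against 68.1 CPM under the Vector label (adjusted p = 0.016), and NQO2, which did not pass the test at 15.2 against 17.7 CPM (adjusted p = 0.28).

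Clade A, known from plasma proteins of the liver, held 11 genes, of which 3 were tested. SERPINA1, alpha-1-antitrypsin, the main inhibitor of neutrophil elastase, was at 261, 297 and 225 CPM under the LINC00665 label and at 4.52, 8.77 and 2.54 CPM under the Vector label. Its log2 fold change was 5.63 (SE 0.44, adjusted p = 1.3e-05), and the libraries labelled Vector spread widely, by 60.4% of their mean. SERPINA5, the protein C inhibitor, was at 7.72, 5.62 and 7.11 CPM under the LINC00665 label and at 0.0466, 0.444 and 0.724 CPM under the Vector label (log2 fold change 4.08, SE 0.57, adjusted p = 0.00035). SERPINA5 passed the filter on low counts through the LINC00665 label alone, so its direction is tied to it, and it shares 53 exon bases with SERPINA4.

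SERPINA3, alpha-1-antichymotrypsin, did not pass the test, at 3.18, 2.42 and 2.26 CPM under the LINC00665 label and 1.54, 2.28 and 4.29 CPM under the Vector label. Its log2 fold change was -0.04 (SE 0.4, adjusted p = 0.93), and 56.6% of its 50-base windows are shared with a gene annotated as AL049839.2, so its reads may be divided. The cluster of 10 clade A genes on chromosome 14 runs from SERPINA10 to SERPINA3. SERPINA6, the cortisol carrier, had 30 and 31 counts under the LINC00665 and the Vector label. SERPINA2 had 14 counts under the LINC00665 label and 0 under the Vector label, and the other untested members there had at most 11. Of 10 hepatocyte markers, 1 was tested and did not pass, with sums of 5.13 to 6.9 CPM under the LINC00665 label and 5.63 to 6.56 CPM under the Vector label, and APOA2, FGA, FGG and TTR were at 0 in both.

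SERPINE2, protease nexin 1, which binds thrombin and urokinase, was at 83, 84.6 and 71.5 CPM under the LINC00665 label and at 8.53, 6.33 and 12.1 CPM under the Vector label (log2 fold change 3.15, SE 0.25, adjusted p = 1.4e-05). Its libraries lay apart by more than the spread within either label.

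SERPINH1, the collagen chaperone HSP47, was at 462, 522 and 465 CPM under the LINC00665 label and at 39.9, 60.1 and 51.5 CPM under the Vector label. The log2 fold change was 3.26 (SE 0.19, adjusted p = 2.7e-06). It was among the 3 most abundant serpins per length in each of the 6 libraries, with 12.6 to 15.1% of the summed serpin FPKM under the LINC00665 label and 11.8 to 14.5% under the Vector label.

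The remaining clades were low in all libraries, and the genes named here, like SERPINA3, fall below the level of 5 CPM set for naming and were chosen after their values were seen. SERPINI1, neuroserpin, an inhibitor of tissue plasminogen activator, was the other gene called lower. It was at 0.465, 0.998 and 0.377 CPM under the LINC00665 label and at 4.06, 4.5 and 2.9 CPM under the Vector label (log2 fold change -2.63, SE 0.41, adjusted p = 0.00069). SERPING1, the C1 inhibitor of complement and contact proteases, was at 2.23, 3.1 and 6.51 CPM under the LINC00665 label and at 0.0932, 0 and 0.103 CPM under the Vector label, with 4 counts in the Vector group (log2 fold change 5.73, SE 0.72, adjusted p = 2e-04). SERPINI1 passed the filter through the Vector label alone and SERPING1 through the LINC00665 label alone, so the direction of each is tied to the filter and the lack of overlap between their libraries is no support for it. LINC00665 3 stood highest for SERPING1.

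Both clade F genes missed the threshold, and each passed the filter through 1 label alone, SERPINF1 through Vector and SERPINF2 through LINC00665. SERPINF1, the pigment epithelium-derived factor, was at 0.744, 0.42 and 0.215 CPM under the LINC00665 label and at 0.559, 1.72 and 1.5 CPM under the Vector label (adjusted p = 0.06). It passed in 4 of 14 alternatives, with total-count scaling (adjusted p = 0.037), on log2(FPKM + 0.1) (0.047), without LINC00665 1 (0.042) and without Vector 1 (0.026). SERPINF2, the plasmin inhibitor alpha-2-antiplasmin, was at 1.4, 1.63 and 1.24 CPM under the LINC00665 label and at 0.559, 1.39 and 0.259 CPM under the Vector label (log2 fold change 0.96, adjusted p = 0.15), and it passed without Vector 2 (1.76, adjusted p = 0.013). SERPINC1, antithrombin, and SERPIND1, heparin cofactor II, had 7 and 9 counts under the LINC00665 label and 0 and 1 under the Vector label, too few for the test.

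**Figure D3:**
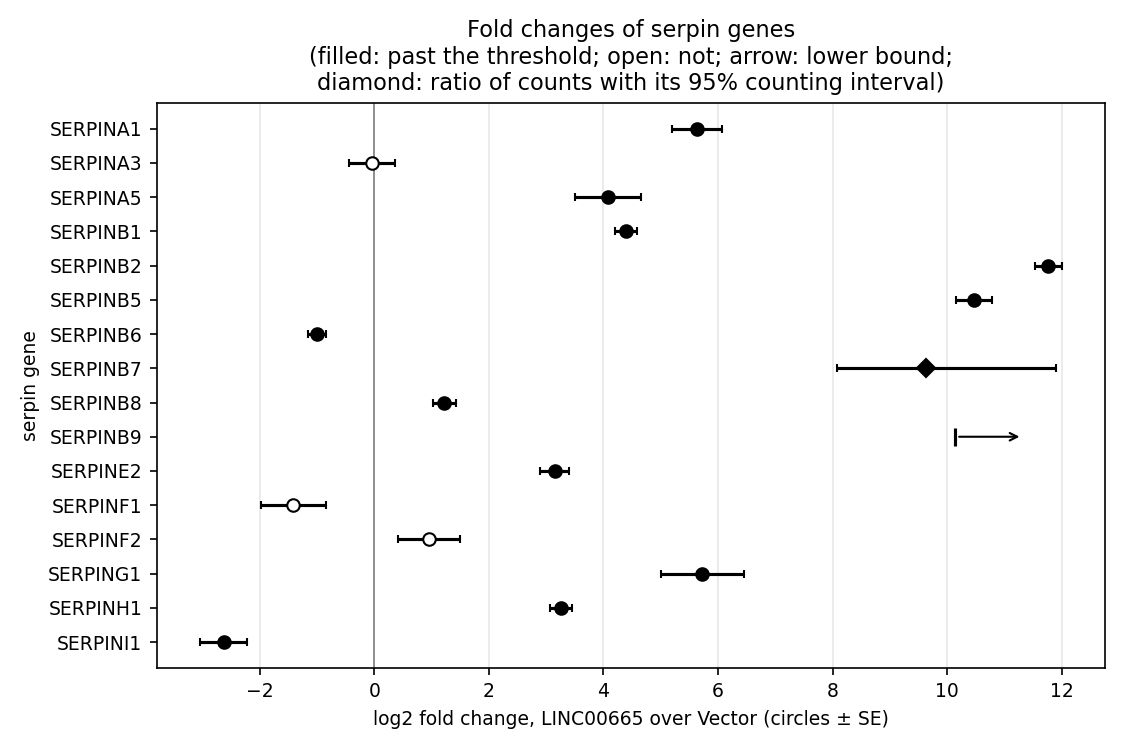
Log2 fold change of 16 serpin genes tested, libraries labelled LINC00665 over libraries labelled Vector. Circles carry ± SE from the edgeR fit, filled past the threshold and open where not, the diamond is the SERPINB7 count ratio with its 95% counting interval, and the arrow starts at the lower bound of SERPINB9. Values run from -2.63 (SERPINI1) to 11.77 (SERPINB2).

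Levels between serpins were compared per length, on the authors' FPKM. Under the LINC00665 label 14 members were above 1 FPKM on average, among them SERPINB2 (864 ± 89.7 FPKM), SERPINH1 (222 ± 11.3), SERPINA1 (165 ± 19.7) and SERPINB5 (65.2 ± 4.28; SD, n = 3 each). The libraries of each of these lay below all libraries of the gene before it. SERPINB6 (41.8 ± 4.14) and SERPINE2 (34.5 ± 2.53) came next, and SERPINB8, SERPINB1 and SERPINB7, at 32.6, 27.3 and 22 FPKM on average, each overlapped the gene before it. Under the Vector label 10 members were above 1 FPKM, among them SERPINB6 (91.2 ± 7.84), SERPINH1 (28.3 ± 5.36) and SERPINB8 (15.8 ± 3.2). SERPINE2 followed at 4.65 ± 1.17 FPKM, and each lower gene overlapped the one before it.

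Summed over all 35 genes, serpin FPKM was 1597 ± 66.2 under the LINC00665 label and 219 ± 33.8 under the Vector label. Serpins took 0.313 to 0.337% of the counts of a library under the LINC00665 label and 0.0367 to 0.0535% under the Vector label. Clade B made 62.3 to 69.2% of the summed FPKM in the libraries labelled LINC00665 and 48 to 54.1% in those labelled Vector, but from different genes: SERPINB2 alone was 49.9 to 56.8% of all serpin FPKM under the LINC00665 label, and SERPINB6 was 39.4 to 45.5% under the Vector label. Clade A made 9.55 to 12.3% under the LINC00665 label and 2.14 to 3.71% under the Vector label. These sums rest on few genes and were not tested.

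**Figure D4:**
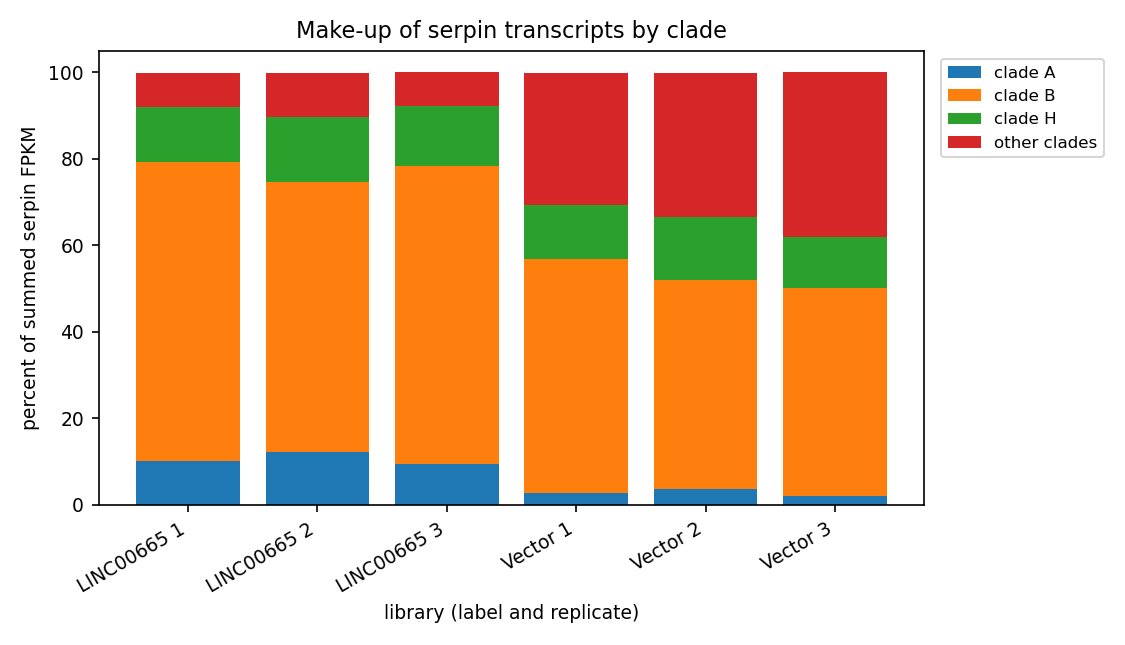
Share of the summed serpin FPKM held by each clade, in percent, for each of the 6 libraries, with those labelled LINC00665 on the left. Clade A fills 9.55 to 12.3% of the bars labelled LINC00665 and 2.14 to 3.71% of those labelled Vector, and clades other than A, B and H are drawn together.

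The spread between libraries was wider under the Vector label. Among the 8 members that would have passed the filter in each group, the coefficient of variation was 6.99 to 21.2% (median 13.3%) under the LINC00665 label and 9.92 to 60.4% (median 24.4%) under the Vector label, beside medians of 9.86% and 18.7% over the 11398 such genes.

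The proteases, receptors and partners of serpins were read from 11 lists with 116 genes, of which 75 were tested. Of these, 43 were higher under the LINC00665 label, 15 were lower and 17 did not pass, against 34.2% higher and 29.3% lower over all genes. Of the 54 that would have passed the filter in each group, 25 were higher and 14 lower, against 26.9% higher and 31.9% lower of the 11398 such genes.

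In the plasminogen activation list 4 of 8 genes were higher and 1 was lower, with a median log2 fold change of 0.48. PLAT, tissue plasminogen activator, a target of SERPINI1, averaged 322 ± 9.98 CPM under the LINC00665 label and 11.1 ± 2.76 CPM under the Vector label (log2 fold change 4.86, adjusted p = 8.5e-07). TMPRSS2, a membrane serine protease that passed the filter through the LINC00665 label alone, averaged 78.4 CPM under the LINC00665 label and had 0 counts under the Vector label, at least 1545-fold higher, and ENO1, a glycolytic enzyme that also binds plasminogen, was lower, at 2841 against 5359 CPM under the Vector label (adjusted p = 7e-04). PLAU, urokinase, a target of SERPINB2, was named after its values were seen. It was at 1437, 1417 and 887 CPM under the LINC00665 label and at 259, 106 and 650.1 CPM under the Vector label (log2 fold change 1.88, SE 0.57, adjusted p = 0.019). Its receptor PLAUR did not pass, at 193 ± 42.2 CPM under the LINC00665 label and 152 ± 77 CPM under the Vector label (adjusted p = 0.44).

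In the coagulation list 5 of 9 tested genes were higher and 3 lower, with a median of 1.19. Thrombomodulin, THBD, averaged 629 CPM under the LINC00665 label and 2.55 CPM under the Vector label (log2 fold change 7.94, adjusted p = 4.4e-07), the protease receptor F2RL1 215 and 6.26 CPM (5.10, adjusted p = 1.3e-06) and tissue factor, F3, 238 and 5.84 CPM (5.35, adjusted p = 3.6e-06). Of the complement C1 and MASP list, 3 of 5 tested genes were lower and 1 was higher, with a median of -0.73. C1R, a target of SERPING1, was the one that was higher, at 79.8 against 3.92 CPM under the Vector label (adjusted p = 3.3e-06), and MASP2, which passed the filter through the Vector label alone (0.306 against 3.02 CPM, adjusted p = 8.3e-05) and C1QBP, which binds C1q (86.9 against 295 CPM, adjusted p = 0.00031), were lower.

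Of the 11 genes in the list of granule and neutrophil proteases, which includes targets of SERPINA1, SERPINB1, SERPINB6 and SERPINB9, 0 had enough counts for the test. Their sum was 0.465 to 1.18 CPM under the LINC00665 label and 0.155 to 0.278 CPM under the Vector label, and GZMB, granzyme B, had 42 and 0 counts. Of 8 leukocyte markers 1 was tested and called higher, having passed the filter through the LINC00665 label alone, with sums of 1.05 to 1.4 CPM under the LINC00665 label and 0.0932 to 0.31 CPM under the Vector label, and PTPRC, MS4A1, NKG7 and LYZ were at 0 under the LINC00665 label. Kallikrein-related peptidases were at 0 counts under the Vector label for the 3 that were tested, KLK6, KLK5 and KLK10, which stood at 2.89, 1.39 and 1.99 CPM under the LINC00665 label, at least 56.6-fold, 26.8-fold and 39.1-fold higher. They passed the filter only through that label, so their direction is tied to it.

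Membrane serine proteases and their Kunitz inhibitors were higher in 7 of 7 cases, of which 1 (SPINT2) would have passed the filter in each group, so the direction of the other 6 is tied to it. ST14, matriptase, averaged 214 CPM under the LINC00665 label and 0.119 CPM under the Vector label (log2 fold change 10.74, adjusted p = 1.4e-07), and its inhibitor SPINT1 417 and 0.951 CPM (8.76, adjusted p = 4.1e-06). PRSS8, prostasin, averaged 104 CPM under the LINC00665 label, against 2 counts under the Vector label, 3045 times as much with a 95% interval for counting error from 843 to 25151. The list median was 8.76, or 8.23 with TMPRSS4, at 0 counts under the Vector label, set at its bound.

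Cysteine cathepsins and cystatins were higher in 11 of 14 cases and lower in 1, with a median of 1.79. Of the 10 that would have passed the filter in each group, 7 were higher and 1 lower, and CTSS and CST6 passed through the LINC00665 label alone. CTSH averaged 134 CPM under the LINC00665 label and 5.35 CPM under the Vector label (log2 fold change 4.64, adjusted p = 5.2e-07), CTSS 40 and 0.188 CPM (7.69, adjusted p = 6.8e-07), and the cystatin CST6 16.3 CPM and 1 count, 949 times as much with an interval from 169.9 to 37522. Of 7 caspases tested 3 were higher and 2 lower, with a median of 0.45, and of the 5 that would have passed the filter in each group 1 was higher and 2 were lower. CASP1 and CASP10 passed through the LINC00665 label alone. CASP1, which makes active interleukin 1 beta, was at 18.2 CPM under the LINC00665 label and 1 count under the Vector label, 1069 times as much with an interval from 191 to 42271. CASP10 was at 25.6 and 0.522 CPM (adjusted p = 1.9e-05) and CASP4 at 62.8 and 20.3 CPM (adjusted p = 3.9e-05) in the same order.

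Of the receptors and cofactors that bind or clear serpins, 5 of 8 were higher and 0 lower, with a median of 1.10, and 4 of the 7 that would have passed the filter in each group were higher. The glypican GPC1 was at 124 CPM under the LINC00665 label and 48.1 CPM under the Vector label (log2 fold change 1.37, adjusted p = 0.00071) and the syndecan SDC1 at 191 and 66.7 CPM (1.52, adjusted p = 0.0083). The collagen list, the clients and co-workers of SERPINH1, was mixed, with 4 of 14 higher, 5 lower and a median of -0.06, or 3 higher and 5 lower of the 11 that would have passed the filter in each group. COL1A1 (71.3 against 1.64 CPM under the Vector label, adjusted p = 4.5e-07) and COL1A2, which passed the filter through the LINC00665 label alone (10.9 against 0.347 CPM, adjusted p = 6.9e-06) were higher, and the prolyl hydroxylase P3H1 was lower (47.3 against 88.4 CPM, adjusted p = 0.0012). Of 8 fibroblast markers, which include COL1A2, 4 were tested and called higher, all of which passed the filter through the LINC00665 label alone, with sums of 172 to 195 CPM under the LINC00665 label and 0.569 to 0.932 CPM under the Vector label, and THY1 made 165 CPM of it. Of 6 endothelial markers 3 were tested and called higher, again through the LINC00665 label alone, with sums of 11.5 to 13.4 CPM under the LINC00665 label and 0.28 to 1.14 CPM under the Vector label. The part of other cell types in these differences was not tested. AGT, angiotensinogen, a serpin by fold whose symbol is outside the rule, had 7.37 and 46.03 expected counts under the LINC00665 and the Vector label and was not tested.

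**Figure D5:**
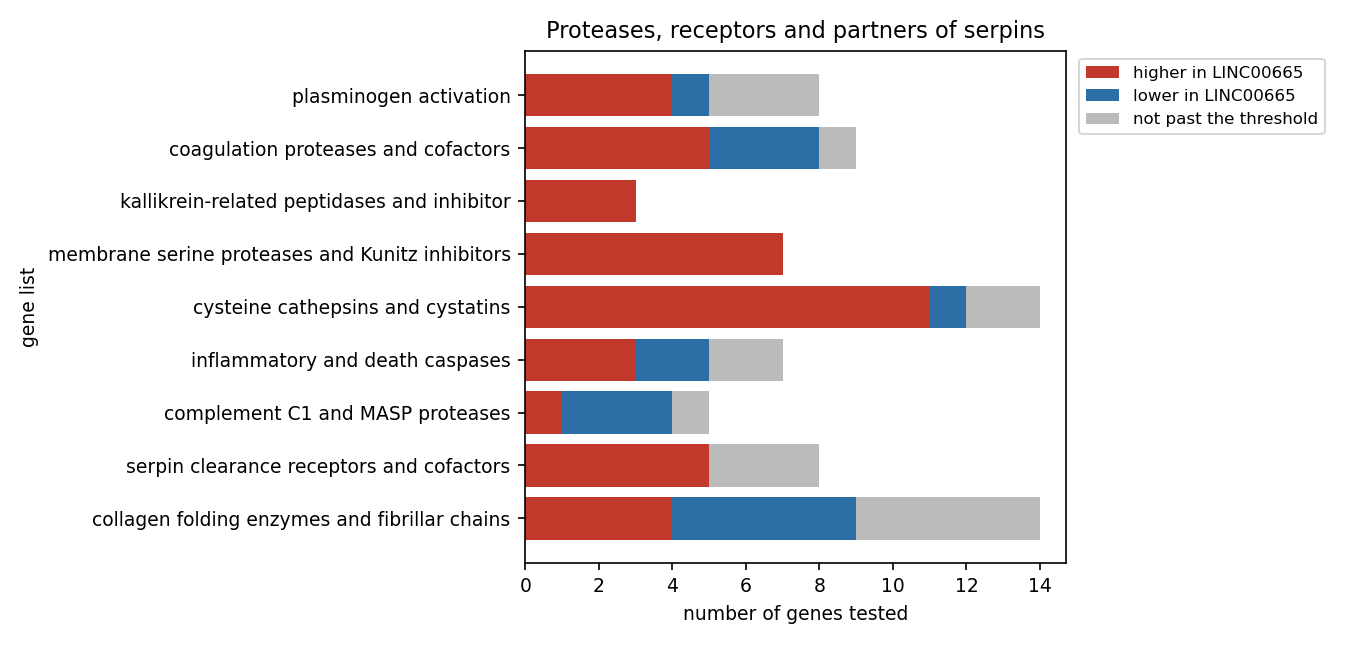
Number of genes tested in each list of serpin targets and partners that were higher, lower or not past an adjusted p of 0.05 under the LINC00665 label. The bar of 14 cathepsin and cystatin genes holds 11 higher, and the bar of 14 collagen-related genes holds 4 higher and 5 lower.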

How the data were processed

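Total RNA of 6 libraries labelled as T24 cells was sequenced from TruSeq libraries, per the labels' protocols. HISAT2 2.0.4 and hg38 are named in the submitters' processing notes with no role. The counting tool, the annotation and the strand setting were not given in the sources used here. The authors deposited an expected count per gene and library, not normalised, with 88.3 to 89.4% of values whole. The authors also deposited FPKM, per the file headers, normalised for gene length and library size.

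Expected counts were rounded and filtered with filterByExpr (minimum count 10). Scaling was by trimmed means of M-values (TMM), and counts were fitted with edgeR 4.0.16 (glmQLFit, glmQLFTest) in R 4.3.3 over 13552 genes, with no covariate. Calls use a Benjamini-Hochberg adjusted p of 0.05. Each SE is the size of the log2 fold change over the square root of F. CPM uses effective library sizes. A group at 0 counts is set at 3 counts over the group for a bound. Intervals at 95% are exact binomial. Bounds and intervals are on counts pooled over the libraries of a label, so they express counting error alone and leave out the spread between libraries. The labels describe no molecular identifiers. Coordinates and exons come from GENCODE 29 (GRCh38), and all 35 members matched by identifier.

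Members and lists were chosen with earlier results of these data known. Values were given per library for members with a mean of at least 5 CPM under either label, and group means for the 3 genes with the smallest p in each partner list. Some genes that enter the fit and the counts are not reported here. No 2 libraries of a label were duplicates (chi-square over its degrees of freedom 10.2 to 121). The check for mixed-up samples found 3 libraries that did not match, and no comparison is left without them. The fit was tested on simulated data. Alternatives were DESeq2 1.42.0, size factors, total-count scaling, other filters and thresholds, limma 3.58.1 (voom, and trend on log2 FPKM with pseudocounts 1 and 0.1), a replicate block and leaving out each library.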

Additional observations from a re-analysis of the deposited data

How the results depend on the processing

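With the fit as described, 12 serpin genes were called higher under the LINC00665 label and 2 lower. Over size factors, total-count scaling, DESeq2, limma on counts or FPKM, the replicate block, no filter and both other thresholds, 11 to 16 were higher and 2 or 3 lower. With a mean of at least 1 CPM required under both labels, 8 members were tested, 6 higher and 1 lower. Of partner genes 55 were tested in place of 75, with 28 higher in place of 43 and 14 lower in place of 15. That filter leaves out genes near 0 under 1 label, and its part in the drop was not tested. Leaving out each library gave 11 to 14 serpins higher and 2 to 3 lower, and 38 to 46 partner genes higher and 14 to 16 lower. With no filter SERPINA2, SERPINB3, SERPINB10 and SERPINB13 were called as well. SERPINA3, never past the threshold, changed sign with that stricter filter (0.03), limma-voom (0.08), limma on log2(FPKM + 0.1) (0.01), the replicate block (0.06), without LINC00665 3 (0.03) and without Vector 3 (0.46), ranging from -0.33 to 0.46 when single libraries were left out, and the cause was not tested. Of 246 single-gene values, 229 kept direction and side of the threshold, 6 reversed, 5 became past it (SERPINF1 and SERPINF2) and 6 fell short. Total-count scaling moved the median log2 fold change of all genes by -0.16, the FPKM scales by -0.14. Whether the shared replicate numbers pair the libraries cannot be settled from these values. Correlations of deviations were 0.152, -0.132 and -0.154 for the same number and -0.107 to 0.207 for different numbers. The block gave 12 serpins higher and 2 lower, with 7924 genes called in all in place of 8611. At this depth members below 3 counts in both groups show no detectable difference.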
